A study of Mus musculus with 4 samples.

Results

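Kinesins are motor proteins that use ATP to move along microtubules or to take them apart. The members described here are all entries of the count table whose symbol is Kif followed by a digit, without the ciliary transport motors Kif3a, Kif3b, Kif3c and Kif17 and the Hedgehog regulator Kif7. This gave 31 of 18471 genes: 30 kinesin motors and Kif16bos, a transcript that carries a kinesin symbol but runs antisense to Kif16b and encodes no motor. Each motor was put in a single role group: 11 mitotic, 11 axonal and vesicle transport, 5 linked to cilia or centrioles, and 3 other. A motor can also act outside its group, and results by group depend on this sorting. RNA sequencing was done on the retina of mouse embryos at embryonic day 19. The groups were 2 wild-type embryos and 2 Foxn3-/- embryos of the C57BL/6NJ-Foxn3em1(IMPC)Bay/Mmnc line. The latter are labelled Foxn3KO and lack exon 3 of Foxn3. No treatment is named for either group, and each library came from the retina of a single genotyped embryo. The title of the series places Foxn3, a forkhead transcription factor, in a network that controls primary cilia.

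In a developing retina, dividing progenitors need kinesins to separate the spindle poles, align chromosomes and divide the cell. Newborn neurons such as ganglion cells use other kinesins to carry vesicles, mitochondria and neurofilaments along the axon. Further kinesins belong to cilia: some build or tune the motile axoneme, others sit at the centriole or the ciliary tip and limit assembly. Retinal cells carry primary cilia, which typically lack the central microtubule pair of motile ones.

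The libraries held 22543531 to 29360129 counts. The targeted gene, Foxn3, had 2421 and 2712 counts under the wild-type label and 4181 and 3219 under the Foxn3KO label, so it was higher under the latter. Gene counts do not resolve exon 3, and every direction below rests on the labels. Wild-type replicate 1 stood apart by sex-linked transcripts, with 83073 counts of Xist and 0 of Ddx3y. The other 3 libraries had at most 19 of Xist and at least 1780 of Ddx3y. By these transcripts wild-type replicate 1 was female and the other 3 libraries male. Only the fit without wild-type replicate 1 thus kept libraries of both genotypes and the same sex. Lens transcripts also differed between libraries. The summed level of 7 lens markers, in CPM (counts scaled to the TMM-adjusted library total), was 4.48 and 66.95 in the wild-type libraries and 240.7 and 239.7 in the Foxn3KO libraries, with no marker at 0.

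The promoter windows of 5 members whose RNA changed are shown first, to let the short motifs searched for in each role group be seen in place. The windows are from RefSeq on GRCm38.p6 and run from 250 bases before the transcription start to 50 bases after it. The submitters' processing notes name mm39, so these coordinates are not those of the count table. A window was found for 25 of the 31 members, 29 windows in all. Capitals in the first 2 mark a run that begins with GTTGCC, part of the X-box that RFX ciliogenesis factors bind.
Kif9, chr9:110476708-110477007, plus strand: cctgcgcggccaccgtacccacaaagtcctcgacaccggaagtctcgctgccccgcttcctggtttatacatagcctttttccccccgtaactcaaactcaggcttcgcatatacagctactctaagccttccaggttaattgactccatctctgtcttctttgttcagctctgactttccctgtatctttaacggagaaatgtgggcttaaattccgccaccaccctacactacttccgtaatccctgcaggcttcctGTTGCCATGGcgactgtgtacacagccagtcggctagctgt
Kif24, chr4:41464799-41465098, minus strand: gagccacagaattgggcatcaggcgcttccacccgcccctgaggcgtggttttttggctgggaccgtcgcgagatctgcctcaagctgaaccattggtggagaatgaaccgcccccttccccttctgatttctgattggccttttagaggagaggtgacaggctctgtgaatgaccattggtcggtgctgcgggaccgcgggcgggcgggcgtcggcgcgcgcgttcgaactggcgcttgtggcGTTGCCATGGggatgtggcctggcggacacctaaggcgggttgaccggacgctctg
The same letters, GTTGCCATGG, begin at base 260 of the Kif9 window and base 245 of the Kif24 window. Neither of the other 2 cilium-linked windows, of Kif6 and Kif27, held GTTGCC. On both strands, GTTGCC was present in 27.6% of member windows and in 12.5% of all 32851 RefSeq windows. By gene it was in 2 of 4 cilium-linked members, 2 of 10 mitotic members (Kif18a and Kif23), 2 of 7 transport members (Kif16b and Kif1a) and in Kif2a. Kif9 has 2 overlapping windows that hold the same site, so it counts as 2 of the windows. The longer run was chosen after the sequences were seen, and 0.563% of all windows held it. The forkhead motif GTAAACA was found in 0 of 29 member windows and in 3.65% of all windows.

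Capitals in the next 3 windows mark TTTGAA, the core of the cell cycle element known as CHR, and CCAAT, the box bound by NF-Y, on either strand. These elements are known from genes that are switched on in G2 and mitosis. The 3 genes are the mitotic members called lower in the libraries labelled Foxn3KO.
Kif11, chr19:37376132-37376431, plus strand: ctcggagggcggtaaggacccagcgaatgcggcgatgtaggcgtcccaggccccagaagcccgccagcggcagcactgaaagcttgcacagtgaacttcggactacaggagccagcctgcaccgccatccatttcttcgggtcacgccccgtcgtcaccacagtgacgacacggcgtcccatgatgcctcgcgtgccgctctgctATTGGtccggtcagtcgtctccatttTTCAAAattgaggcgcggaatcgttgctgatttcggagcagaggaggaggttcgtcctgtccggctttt
Kif20b, chr19:34922108-34922407, plus strand: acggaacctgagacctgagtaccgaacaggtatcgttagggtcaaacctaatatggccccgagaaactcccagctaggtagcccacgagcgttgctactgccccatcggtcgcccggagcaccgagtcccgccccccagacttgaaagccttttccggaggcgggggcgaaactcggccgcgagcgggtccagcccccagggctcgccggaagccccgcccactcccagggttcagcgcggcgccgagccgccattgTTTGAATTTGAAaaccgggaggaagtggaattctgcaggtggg
Kif15, chr9:122950831-122951130, plus strand: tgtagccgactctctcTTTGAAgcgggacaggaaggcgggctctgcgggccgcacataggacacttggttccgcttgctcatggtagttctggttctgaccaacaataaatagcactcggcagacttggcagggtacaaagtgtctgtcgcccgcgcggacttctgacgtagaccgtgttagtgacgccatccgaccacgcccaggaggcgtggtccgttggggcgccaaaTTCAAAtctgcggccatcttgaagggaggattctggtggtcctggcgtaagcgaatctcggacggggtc
TTTGAA or its reverse complement was present in 9 of the 10 mitotic windows, against 17.9% of all windows. It was in 1 of 9 transport windows and 1 of 5 cilium-linked windows. The mitotic member without it was Kif18a. CCAAT was in 6 of the 10 mitotic windows and in 37.4% of all windows. It was also in 3 of 5 cilium-linked windows and 2 of 9 transport windows. The Kif24 window above holds it, not marked by capitals. It was found in the Kif11 window and not in the windows of Kif15 and Kif20b. These are matches of letters, not measured binding sites.

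All 5 cilium-linked kinesins were higher in the libraries labelled Foxn3KO, 3 of them from a very low level. Across the table, 21.9% of the 17300 tested genes passed an adjusted p of 0.05, with 12.3% called higher and 9.66% called lower (edgeR quasi-likelihood with Benjamini-Hochberg adjustment). All 31 members passed the filter on low counts. Of these, 9 were called: the 5 cilium-linked members as higher, and 3 mitotic and 1 transport member as lower. Without wild-type replicate 1, 15 members were called, where 24.3% of all tested genes were called. Without replicate 2, 15 were also called, where the share of all genes was 28.6%. The median log2 fold change was 3.11 for the cilium-linked members, -0.08 for the mitotic members and -0.07 for the transport members. Without wild-type replicate 2 the transport median was 0.006 and the mitotic median -0.122. Without replicate 1 they were -0.083 and -0.056. Over all tested genes the median with all libraries was -0.005.

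**Figure D1:**
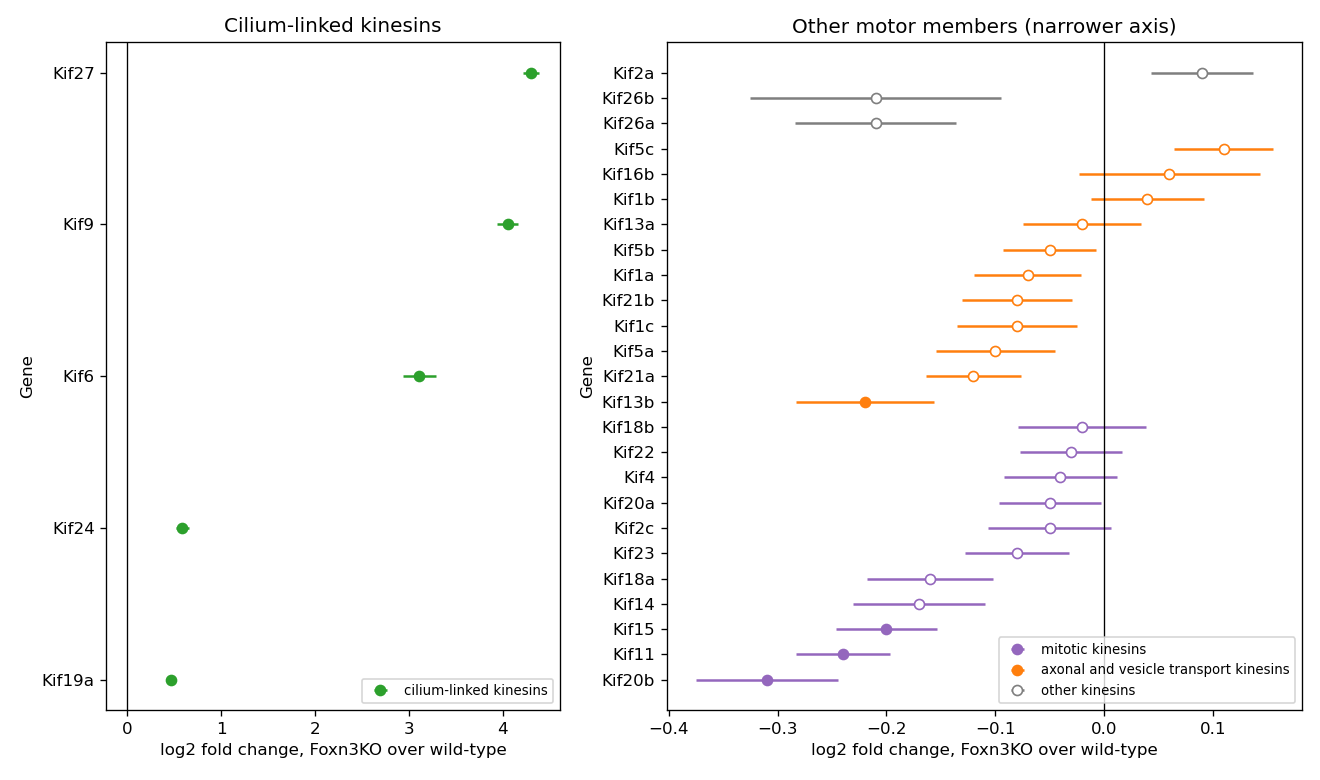
Log2 fold change of each motor member, libraries labelled Foxn3KO over wild-type, with its standard error as bars and filled points for genes past the adjusted p of 0.05. The left panel holds the 5 cilium-linked kinesins, between 0.47 and 4.30, and the right panel the other 25 on a narrower axis, between -0.31 and 0.11.

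Kif27 (ENSMUSG00000060176), a paralog of Kif7 needed for the central pair of motile cilia, had 70 and 90 counts in the wild-type libraries and 1770 and 1353 in the Foxn3KO libraries. This was 2.82 and 3.31 CPM against 60.8 and 60.4 CPM. The groups lay far apart, and the Foxn3KO libraries were almost equal. The rise was 19.7-fold, a log2 fold change of 4.30 (SE 0.0893, edgeR adjusted p = 2.42e-16).

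Kif9 (ENSMUSG00000032489), a motor of the central pair in motile cilia and sperm tails, had 53 and 76 counts in the wild-type libraries and 1197 and 926 in the Foxn3KO libraries. Its level was 2.14 and 2.80 CPM against 41.1 and 41.4 CPM. Again both Foxn3KO libraries stood well above both wild-type libraries. The rise was 16.6-fold, a log2 fold change of 4.05 (SE 0.110, edgeR adjusted p = 8.25e-15).

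Kif6 (ENSMUSG00000023999), a kinesin of motile cilia known from ependymal cells, was the least abundant member per gene length in the wild-type group. It had 44 and 32 counts in the wild-type libraries and 378 and 277 in the Foxn3KO libraries, or 1.77 and 1.18 CPM against 13.0 and 12.4 CPM. It rose 8.63-fold, a log2 fold change of 3.11 (SE 0.176, edgeR adjusted p = 2.74e-10). The wild-type libraries differed from each other more for Kif6 than for Kif27 and Kif9, yet the groups did not overlap.

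The other two cilium-linked members were already expressed in the wild-type retina and rose less. Kif24, a centriolar kinesin that works with CP110 to hold back cilium assembly, had 27.99 and 30.55 CPM in the wild-type libraries and 43.96 and 44.07 in the Foxn3KO libraries. This was a 1.5-fold rise, a log2 fold change of 0.59 (SE 0.0671, edgeR adjusted p = 3.74e-06). Kif19a, a depolymerase at the ciliary tip that limits the length of motile cilia, had 79.6 and 76.85 CPM against 111.7 and 104.2 CPM. It rose 1.38-fold, a log2 fold change of 0.47 (SE 0.052, edgeR adjusted p = 2.89e-06).

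**Figure D2:**
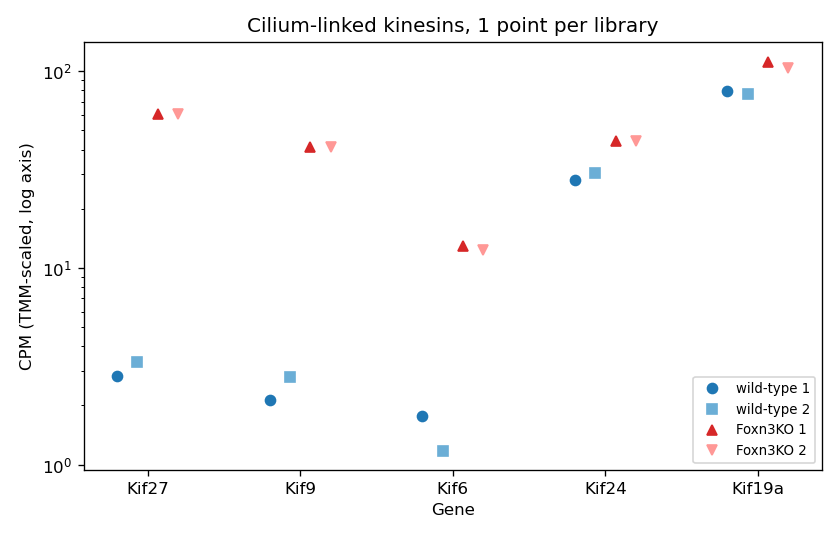
Level of the 5 cilium-linked kinesins in CPM on a log axis, 1 point for each of the 4 libraries. Kif27, Kif9 and Kif6 lie at 1.18 to 3.31 CPM in the wild-type libraries and at 12.4 to 60.8 CPM in the Foxn3KO libraries, while Kif24 and Kif19a start at 27.99 CPM or more.

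These changes reordered the members by level per gene length. In the authors' FPKM values, Kif27 was 0.586 ± 0.0669 (SD, n = 2) in the wild-type group, the 28th of 31 members, and 11.6 ± 0.0490 (SD, n = 2) in the Foxn3KO group, the 17th. Kif9 went from 0.572 ± 0.109 to 9.57 ± 0.0405 FPKM (SD, n = 2 each), from place 29 to 20. Kif19a moved from place 10 to 5, while Kif24 kept place 24. The 5 cilium-linked members made up 5.28% and 5.11% of the summed FPKM of all members in the wild-type libraries and 11.7% and 11.3% in the Foxn3KO libraries. The direction of all 5 held with each library left out in turn.

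The summed level of the 5 was 114.3 and 114.7 CPM in the wild-type libraries, a ratio of 1.00. Most of this sum came from Kif19a and Kif24. From wild-type replicate 1 to 2, Kif27 went from 2.82 to 3.31 CPM and Kif9 from 2.14 to 2.80. Kif6 went from 1.77 to 1.18 CPM. The summed lens markers differed 15.0-fold between the same libraries. Against wild-type replicate 2 alone, the lens sum was 3.59 times higher in the Foxn3KO libraries, and its part in the rise of the kinesins was not tested. Without wild-type replicate 1, log2 fold changes were 4.19 for Kif27, 3.88 for Kif9, 3.43 for Kif6, 0.53 for Kif24 and 0.50 for Kif19a. Among 7 tested markers of choroid plexus and ependyma, tissues with motile cilia, 3 were called higher and 1 lower. The shares over all tested genes were 12.3% and 9.66%. The summed level of the 8 markers found was 474.6 and 476.9 CPM in the wild-type libraries and 490.8 and 481.5 in the Foxn3KO libraries, most of it from Otx2, which the retina also expresses. Folr1 had a log2 fold change of 1.94 and Aqp1 of 1.22 (edgeR adjusted p = 4.08e-06 and 0.000836). Clic6 went the other way, with -1.53 (edgeR adjusted p = 0.00103). Cfap126, which encodes an axonemal protein, rose by 5.38 (edgeR adjusted p = 3.40e-13). The part of such tissue in the rise of the kinesins was not tested. In bulk RNA, a change in the number of cells of a type and a change in RNA per cell cannot be told apart.

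The mitotic kinesins showed small differences below 0. Each of the 11 had a negative log2 fold change, from -0.31 to -0.02, as did 50.9% of all tested genes. The test called 3 of the 11 (27.3%), all lower. Of all tested genes, 21.9% were called and 9.66% were called lower. The median log2 fold change of the 11 was -0.056 without wild-type replicate 1 and -0.122 without replicate 2. The groups did not overlap for 8 of the 11, always with the Foxn3KO libraries lower. Over all tested genes, 30.5% did not overlap in that direction. Summed over the list, the level was 1214 and 1157 CPM in the wild-type libraries and 1080 in both Foxn3KO libraries.

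Kif11, the motor that pushes spindle poles apart, was the most abundant mitotic member per gene length, at 35.7 ± 1.28 FPKM (SD, n = 2) in the wild-type group. It had 274.8 and 260.7 CPM in the wild-type libraries and 225.2 and 227.5 in the Foxn3KO libraries. It fell by 15.4%, a log2 fold change of -0.24 (SE 0.0432, edgeR adjusted p = 0.000500). Kif15, which can stand in for Kif11 at the bipolar spindle, had 142.5 and 136.1 CPM against 120.3 and 122.1 CPM. It fell by 13.0%, a log2 fold change of -0.20 (SE 0.0466, edgeR adjusted p = 0.00459). For both genes the groups did not overlap. Without either Foxn3KO library Kif15 no longer passed (edgeR adjusted p = 0.0922 and 0.0532).

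Kif20b, which acts in the last steps of cytokinesis, had the lowest log2 fold change of the members in the fit of all 4 libraries. It had 78.35 and 67.24 CPM in the wild-type libraries and 57.90 and 59.88 CPM in the Foxn3KO libraries. It fell by 19.1%, a log2 fold change of -0.31 (SE 0.0654, edgeR adjusted p = 0.00243). Wild-type replicate 1 was the highest library, and without it the log2 fold change was -0.19, less far below 0 than that of Kif26b, Kif26a, Kif13b, Kif11 and Kif5a.

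Kif14 and Kif18a missed the threshold in the fit of all 4 libraries. Kif14, a midbody kinesin of cytokinesis, had 49.96 and 48.91 CPM against 42.51 and 45.63 CPM (log2 fold change -0.17, edgeR adjusted p = 0.0606). Kif18a, which dampens chromosome movements at the metaphase plate, had 80.25 and 73.06 CPM against 66.59 and 70.46 CPM (log2 fold change -0.16, edgeR adjusted p = 0.0547). Neither gene's groups overlapped. Both passed under total count scaling (edgeR adjusted p = 0.0355 and 0.0312) and without wild-type replicate 2 (0.0225 and 0.000184). The log2 fold change of Kif18a was -0.09 without wild-type replicate 1 and -0.23 without replicate 2.

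The other 6 mitotic members were closer to 0, from -0.08 to -0.02. They were Kif23 and Kif20a, motors of the central spindle, Kif2c, which takes microtubules apart at kinetochores, the chromosome-bound motors Kif22 and Kif4, and Kif18b, which shortens astral microtubules. Their edgeR adjusted p ranged from 0.285 for Kif23 to 0.834 for Kif18b. Kif4 lies on the X chromosome, where wild-type replicate 1 differed in sex-linked transcripts, and had 105.0 and 101.3 CPM against 104.6 and 96.3 CPM. Its groups overlapped, as did those of Kif2c and Kif18b.

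Partners of the mitotic kinesins mostly had negative log2 fold changes. Of 24 spindle and cytokinesis genes, 17 had a negative log2 fold change and 7 a positive value, with a median of -0.09. The share of negative values over all tested genes was 50.9%. Of the 24, 8 were called lower and 2 higher, against 9.66% and 12.3% of all tested genes. Wild-type replicate 1 was the highest library for 14 of the 24, against 4988 of all 17300 tested genes. The 3 with the smallest p were Hmmr (-0.38, edgeR adjusted p = 0.000112), Bub1 (-0.33, 0.000324) and Nusap1 (-0.26, 0.000378). Hmmr and Nusap1 bind spindle microtubules, and Bub1 is a checkpoint kinase. The cytokinesis regulator Ect2 and the mitotic kinase Plk1 both rose by 0.19 (edgeR adjusted p = 0.00695 and 0.0108). Mki67, a general marker of cycling cells, had 605.1 and 593.4 CPM against 601.0 and 594.8 CPM. Among 8 retinal progenitor markers, 3 were called lower and 1 higher. Their summed level was 5486 and 5726 CPM in the wild-type libraries and 5090 and 5097 CPM in the Foxn3KO libraries, with a median log2 fold change of -0.06. Most of that sum came from Ccnd1, with 3545 and 3709 CPM against 3203 and 3184 CPM. The part of progenitor number in the mitotic values was not tested.

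**Figure D3:**
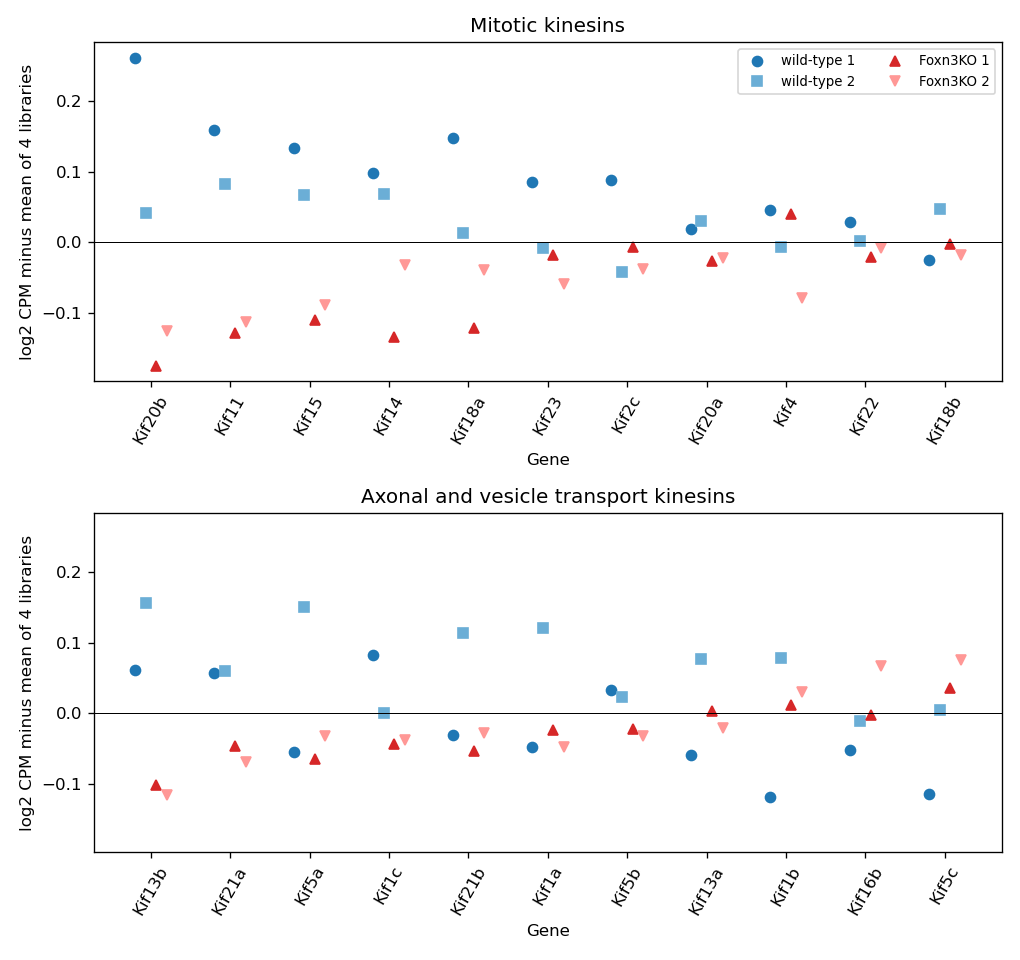
Level of each mitotic (top) and each axonal or vesicle transport kinesin (bottom) in every library, as log2 CPM minus the mean of the 4 libraries. In the top panel wild-type replicate 1 is the highest library for 9 of the 11 genes, and in the bottom panel the wild-type libraries lie on either side of the Foxn3KO libraries for several genes.

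The transport kinesins were the most abundant role group and were little separated by genotype. They held 48.6% and 51.3% of the members' summed FPKM in the wild-type libraries and 47.3% and 47.7% in the Foxn3KO libraries. Log2 fold changes ran from -0.22 to 0.11. Of all tested genes, 21.9% were called and 9.66% were called lower, and of the transport kinesins 1 of 11 (9.09%) was called, as lower. That gene was Kif13b, a motor for membrane cargo. It had 41.45 and 44.24 CPM in the wild-type libraries and 37.02 and 36.66 CPM in the Foxn3KO libraries, groups that did not overlap. It fell by 14.0%, a log2 fold change of -0.22 (SE 0.0636, edgeR adjusted p = 0.0199). Its log2 fold change was -0.26 without wild-type replicate 1 and -0.17 without replicate 2. It did not pass in DESeq2 (adjusted p = 0.103, where 16.0% of genes with an adjusted p were called) or without wild-type replicate 2, Foxn3KO replicate 1 or Foxn3KO replicate 2 (edgeR adjusted p = 0.0654, 0.112 and 0.143).

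The main axonal motors had overlapping groups or small differences. Kif5c, a neuronal conventional kinesin and the most abundant member per gene length, had 305.7 and 332.1 CPM against 339.3 and 348.8 CPM. Its log2 fold change of 0.11 did not pass (edgeR adjusted p = 0.0986). Leaving out wild-type replicate 1 gave 0.05. Leaving out replicate 2 gave 0.17, and Kif5c then passed (edgeR adjusted p = 4.39e-06). Kif1a, which carries synaptic vesicle precursors, had 381.8 and 429.0 CPM against 388.2 and 381.9 CPM (log2 fold change -0.07, edgeR adjusted p = 0.318). Both Foxn3KO libraries of Kif1a lay near wild-type replicate 1 and below wild-type replicate 2.

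Kif5a, the conventional kinesin of neurofilament transport, showed the same layout, with 224.5 and 258.9 CPM against 223.0 and 228.1 CPM (log2 fold change -0.10, edgeR adjusted p = 0.216). Kif1b, a motor for mitochondria and synaptic vesicle precursors, had 335.8 and 385.1 CPM against 367.9 and 372.3 CPM. Its Foxn3KO libraries lay between the wild-type libraries. Kif5b, the widely expressed conventional kinesin, had 196.7 and 195.3 CPM against 189.3 and 188.1 CPM, with a log2 fold change of -0.05 (edgeR adjusted p = 0.405). Kif21a, a regulator of microtubule growth in axons, had 176.1 and 176.3 CPM against 163.8 and 161.3 CPM. It missed the threshold in the fit of all 4 libraries (log2 fold change -0.12, edgeR adjusted p = 0.0648). Of the alternatives with all 4 libraries, only total count scaling and an earlier edgeR fit called it (edgeR adjusted p = 0.0298 and 0.0261). Its log2 fold change was -0.11 without wild-type replicate 1 and also without replicate 2.

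The other 4 transport members were the endosome motors Kif13a and Kif16b, the Golgi and vesicle motor Kif1c, and Kif21b, a regulator of microtubule growth. Their log2 fold changes ran from -0.08 to 0.06, and none passed in the fit of all 4 libraries. The value of Kif21b was -0.15 without wild-type replicate 1 and -0.01 without replicate 2.

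The wild-type libraries, which also differed in sex-linked transcripts, differed from each other in these motors. The part of sex in this was not tested. Wild-type replicate 2 was above replicate 1 for 9 of 11 transport kinesins, with a median log2 difference of 0.119, and below it for 9 of 11 mitotic kinesins, with a median of -0.066. All 10 retinal ganglion cell markers were also higher in wild-type replicate 2, with a median of 0.13, against 8546 of all 17300 tested genes. Between the Foxn3KO libraries the median absolute log2 difference of the 30 motors was 0.0247, and between the wild-type libraries it was 0.106. Which wild-type library was used therefore set several signs. Kif5a had a log2 fold change of -0.20 without wild-type replicate 1 and 0.01 without replicate 2, and Kif1a had -0.15 and 0.01. Without wild-type replicate 1, 5 of the 11 transport kinesins were called, all lower, where 24.3% of all tested genes were called and 10.9% were called lower. Without replicate 2, 3 were called, 2 of them higher, where 28.6% of all tested genes were called and 15.6% were called higher. In these fits the lone wild-type library is assumed to vary like the Foxn3KO libraries, which differ little.

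Axonal transport partners were mostly above 0. Of 24 genes for kinesin light chains, adaptors, cargo linkers and dynein parts, 7 were called higher and 0 lower. The shares over all tested genes were 12.3% and 9.66%. The log2 fold change was above 0 for 19 of the 24, against 8499 of all 17300 tested genes. The median of the 24 was 0.11. Hap1, an adaptor that binds huntingtin, rose by 0.53 (edgeR adjusted p = 1.14e-07). Madd, which links Kif1 motors to Rab3 vesicles, rose by 0.31 (edgeR adjusted p = 7.06e-05), and Sybu, which links syntaxin cargo to Kif5, rose by 0.38 (edgeR adjusted p = 9.59e-05). Of the 10 ganglion cell markers, 1 was called higher and 1 lower. Their summed level was 1360 and 1483 CPM in the wild-type libraries and 1445 and 1438 CPM in the Foxn3KO libraries.

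**Figure D4:**
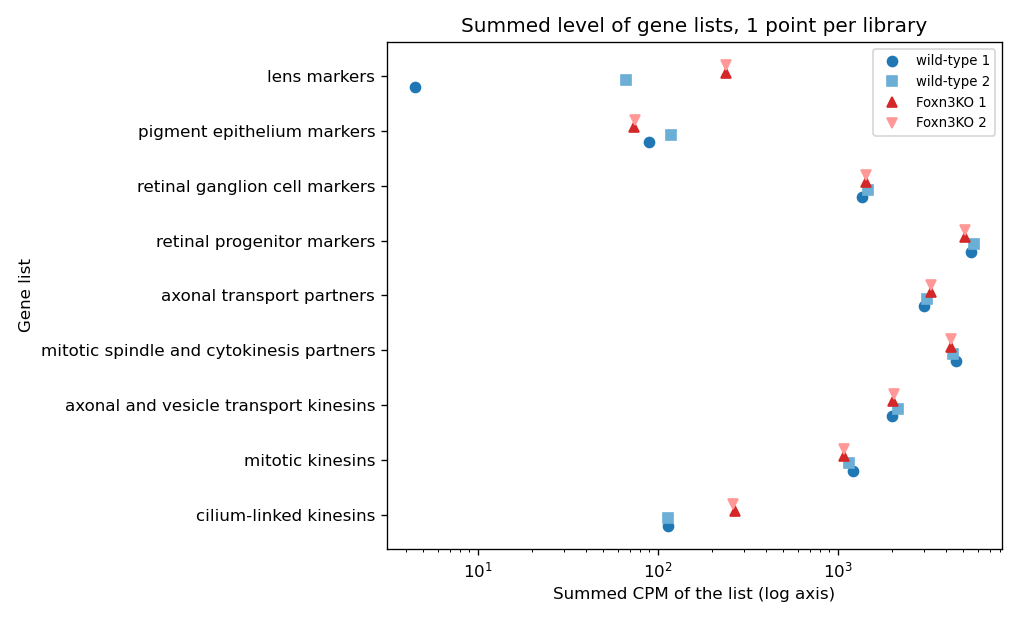
Summed CPM of kinesin groups, their partners and marker lists on a log axis, 1 point for each of the 4 libraries. The cilium-linked kinesins sit at 114.3 and 114.7 CPM in the wild-type libraries and at 270.6 and 262.4 in the Foxn3KO libraries, while the lens markers also differ between the wild-type libraries.

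The 3 other motors did not pass in the fit of all 4 libraries. Kif26a and Kif26b, atypical kinesins that act in signalling, had log2 fold changes of -0.21 each (edgeR adjusted p = 0.0545 and 0.213). Kif26a lay close to the threshold and passed in 5 of 12 alternatives, with edgeR adjusted p = 0.0351 under total count scaling and 0.00229 without wild-type replicate 1, where its log2 fold change was -0.28. Kif26b depended on the wild-type library, with -0.40 without replicate 1 and 0.02 without replicate 2. Kif2a, a depolymerase that limits axon branches, had 115.2 and 119.5 CPM against 126.0 and 123.6 CPM (log2 fold change 0.09, edgeR adjusted p = 0.196). Kif16bos had 6, 4, 13 and 9 counts in wild-type replicates 1 and 2 and Foxn3KO replicates 1 and 2, too few for a call (edgeR adjusted p = 0.226). The use of strand in counting is not given in the sources used here, so reads of Kif16b and Kif16bos may be mixed.

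Among kinesins outside the rule, the ciliary transport genes Kif3a, Kif3b, Kif17 and Kifap3 were called higher, and Kif3c and Kif7 did not pass. Of 5 further motors, Kifc3 was called higher, and Kifc2 and Kifc5b lower. Over all tested genes, 12.3% were called higher and 9.66% lower. Kifc5b is nearly identical to Kifc1, so its counts are uncertain.

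In the authors' deposited table, 8 of the 31 members had an adjusted p under 0.05. DESeq2 as run here called 16.0% of all genes with an adjusted p. All 8 were called here as well, and Kif13b was called only here. The authors' deposited table gives Kif27 a log2 fold change of 4.29, Kif9 4.04 and Kif6 3.07.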

How the data were processed

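RNA of 4 retinas was sequenced as strand-specific libraries with molecular identifiers, per the labels' protocols. The authors deposited 1 table with whole-number counts per gene and library, FPKM values, a mean normalized signal, log2 fold changes and p-values with adjusted p-values. Per the submitters' processing notes, DESeq2 and mm39 were used. The aligner, counting tool, annotation, use of strand and removal of duplicates are not given in the sources used here.

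The table held 18472 entries, of which 1 repeated identifier was dropped. The filter filterByExpr left 17300 genes, scaled with TMM. They were tested in edgeR 4.0.16 (R 4.3.3, quasi-likelihood F test, two-sided, genotype as the only term) and adjusted by Benjamini-Hochberg over the 17300 genes, with calls at an adjusted p under 0.05. The test was checked on simulated data. The deposited FPKM values served only for levels between genes. With 2 embryos per group, p-values rest on a spread shared across genes. A count of 3 equals 0.102 to 0.133 CPM, a limit that covers counting error only.

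Alternatives used limma 3.58.1, DESeq2 1.42.0, other scalings and filters, a replicate term, and leaving out each library. Every member is named. For the partner lists, called genes with the smallest p are named, and others were chosen after their values were seen. Members, role lists and motifs were chosen with earlier results of these data known. Kif2b, Kif28, Kif12, Kif19b and Kif25 were not analysed here. Figures were drawn with matplotlib 3.10.9.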

Additional observations from a re-analysis of the deposited data

How the results depend on the processing

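Across the settings that used all 4 libraries, no member changed direction. The 5 cilium-linked kinesins were called higher in all 12 alternatives. The count of called mitotic kinesins rose from 3 to 5 under total count scaling and with the replicate block. The count of called transport kinesins moved from 1 to 2 under total count scaling, the earlier edgeR fit and the replicate block, and to 0 in DESeq2, which called 2437 genes against 3795. The cause was not tested. Replicate numbers recur in both groups but do not show pairs: the correlation of the replicate differences of both groups over all tested genes was -0.00825. With the replicate block, Kif14, Kif18a, Kif26a and Kif5c passed in addition (edgeR adjusted p = 0.0476, 0.0371, 0.0324 and 0.0476), and 13 of 31 members and 4222 genes were called.

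Leaving out each library in turn gave 7 to 15 called members, 2 to 6 mitotic and 0 to 5 transport kinesins, and 2323 to 5067 called genes. The sign changed in 8 values, none of them called with all 4 libraries, whose ranges over the 4 left-out libraries were -0.06 to 0.14 for Kif1b, -0.11 to 0.02 for Kif2c, -0.08 to 0.05 for Kif13a, -0.06 to 0.02 for Kif18b, -0.15 to 0.01 for Kif1a, -0.40 to 0.02 for Kif26b, -0.20 to 0.01 for Kif5a and -0.10 to 0.02 for Kif4. The changed sign came without wild-type replicate 1 for Kif1b and Kif2c, without Foxn3KO replicate 2 for Kif4 and without wild-type replicate 2 for the other 5. Without wild-type replicate 1 or 2, Kif26b, Kif5a, Kif1a and Kif1b each passed once (edgeR adjusted p = 0.000899, 3.94e-07, 1.03e-05 and 0.000153). The median of the cilium-linked members ranged from 2.84 without wild-type replicate 2 to 3.43 without wild-type replicate 1. The depth limits only Kif16bos, which had 13 counts at most.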
